A study of Homo sapiens with 15 samples.

Results

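The genes described here are 55 genes of the S, G2 and M phases of the cell cycle, 21 that act in DNA replication and 34 that act in mitosis, out of 19775 genes measured on the arrays. They were listed by name with earlier results of these arrays known. A gene is the probe set of its single annotated symbol with the highest mean over the 15 arrays, and all 55 were measured, each above the background level of its line. They were followed in both human cell lines of the study, which it describes as granulosa cell tumour lines. The study asked what the tumour mutation of the transcription factor FOXL2 does to gene expression.

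The established line KGN was derived from a tumour of the adult type and carries the 402C>G mutation of FOXL2 on a single allele beside a wildtype allele. KGN cells at passage 8 received an siRNA against FOXL2 (RR1004, RR1007 and RR1008) or a control siRNA matched for GC content (RR1003, RR1006 and RR1009). COV434 is an established line without the mutation and with FOXL2 at background, and at passage 9 it received 1 µg of an empty vector (RR1016, RR1021 and RR1023), of a plasmid with wildtype FOXL2 (RR1018, RR1020 and RR1022) or of a plasmid with mutant FOXL2 (RR1017, RR1019 and RR1024). In both lines 300000 cells were seeded per well, the lipid complexes were taken off after 7 h, and RNA was taken 24 h after transfection. The 3 arrays of a group come from separate transfections made on the same occasion, so p-values measure the spread between those wells. A single siRNA product was used, which the study considers likely to silence both FOXL2 alleles.

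Cells copy their DNA in S phase, prepare to divide in G2 and separate the chromosomes in M phase. Entry into S phase is driven by E2F transcription factors and cyclin E, which turn on the genes of origin licensing, the replication fork and deoxynucleotide supply. In G2 the mitotic genes rise together, among them cyclin B with its kinase CDK1, the spindle kinesins, the kinetochore proteins and the checkpoint that holds back anaphase. RNA levels of such genes therefore follow both how many cells divide and how strongly each dividing cell transcribes them, and in RNA from whole wells these cannot be told apart.

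The promoters of both classes carry different short sequences. E2F proteins bind words such as TTTCCCGC, TTTGGCGC, TTTCGCGC and TTTGCCGC, while many G2 and M genes carry the CHR word TTTGAA, which is read by complexes of the MuvB family, often next to a CCAAT box. Promoters of 47 of the 55 genes were matched by symbol in the RefSeq table of build GRCh38.p14, 18 of replication and 29 of mitosis genes, each window running from 250 bases before to 50 bases after a transcription start. Not matched were CCNE2, MCM4, MCM5, AURKA, TTK, UBE2C, BIRC5 and TPX2. Both strands were searched, and a gene with several starts was counted once. An E2F word stood in the window of 12 of the 18 replication genes and 3 of the 29 mitosis genes, and in 3.99% of the 27305 genes of the table (3.31% of its 35116 windows). The CHR word stood in that of 1 of 18 replication genes, RRM1, and 22 of 29 mitosis genes, and in 18.2% of all genes (15.2% of windows). CCAAT stood in 13 of 18 and 24 of 29, and in 39.7% of all genes (34.6% of windows). These matches describe letters, not binding.

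The 160 bases before the start of 8 genes are shown. Of these, 6 are the members with the smallest p in the FOXL2 comparisons described below, with all arrays in the fit, whose promoter was matched with a single start. They are E2F1 and CCNE1 in the knockdown, POLA1 and CENPE between mutant and wildtype FOXL2, and CDC25A, MKI67 and again CENPE against the empty vector. None of them passed the test with all arrays. KIF11 is added as the member that differed most between the plasmids, and ANLN as the member that differed most between the lines. Each is written 5′ to 3′ on the strand of its gene, in lower case, with the E2F words, TTTGAA and CCAAT of either orientation in capitals. E2F1 is at chr20:33686386-33686545 (minus strand), CCNE1 at chr19:29811831-29811990 (plus), CDC25A at chr3:48188418-48188577 (minus), POLA1 at chrX:24693758-24693917 (plus), CENPE at chr4:103198344-103198503 (minus), MKI67 at chr10:128126424-128126583 (minus), KIF11 at chr10:92592970-92593129 (plus) and ANLN at chr7:36389702-36389861 (plus). E2F1, CDC25A and POLA1 hold E2F words, and MKI67, KIF11 and ANLN hold the CHR word, which in MKI67 overlaps a CCAAT box by a base and in ANLN stands back to back with its reverse complement. The windows of CCNE1 and CENPE hold none of the words searched.
E2F1: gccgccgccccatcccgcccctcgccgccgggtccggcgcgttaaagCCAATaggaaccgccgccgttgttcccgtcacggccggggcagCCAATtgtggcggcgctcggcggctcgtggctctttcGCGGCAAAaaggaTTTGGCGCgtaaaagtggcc
CCNE1: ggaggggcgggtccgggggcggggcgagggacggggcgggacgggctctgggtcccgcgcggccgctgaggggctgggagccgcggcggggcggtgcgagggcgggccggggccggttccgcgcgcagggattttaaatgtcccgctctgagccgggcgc
CDC25A: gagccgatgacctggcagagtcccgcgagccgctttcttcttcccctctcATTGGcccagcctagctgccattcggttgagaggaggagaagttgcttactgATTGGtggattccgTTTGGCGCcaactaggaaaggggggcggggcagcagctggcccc
POLA1: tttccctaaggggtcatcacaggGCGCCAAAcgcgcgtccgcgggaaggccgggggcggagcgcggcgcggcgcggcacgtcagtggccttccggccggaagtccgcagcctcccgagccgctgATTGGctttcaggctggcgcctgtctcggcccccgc
CENPE: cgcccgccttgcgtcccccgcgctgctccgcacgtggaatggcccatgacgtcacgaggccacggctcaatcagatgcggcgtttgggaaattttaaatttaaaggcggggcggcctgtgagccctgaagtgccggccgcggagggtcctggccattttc
MKI67: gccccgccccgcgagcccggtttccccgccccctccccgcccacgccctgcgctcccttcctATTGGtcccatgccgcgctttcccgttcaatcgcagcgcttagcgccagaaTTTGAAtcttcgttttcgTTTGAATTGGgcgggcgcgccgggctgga
KIF11: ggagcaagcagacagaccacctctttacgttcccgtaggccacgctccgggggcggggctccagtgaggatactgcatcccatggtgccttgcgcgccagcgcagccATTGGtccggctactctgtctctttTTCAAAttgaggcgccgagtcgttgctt
ANLN: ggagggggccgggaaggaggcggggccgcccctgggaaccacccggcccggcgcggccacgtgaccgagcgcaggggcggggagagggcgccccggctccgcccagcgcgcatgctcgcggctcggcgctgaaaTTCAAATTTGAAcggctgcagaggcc

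FOXL2 itself checks the knockdown labels. Its level in KGN was 8.13, 7.91 and 8.18 on the log2 scale with control siRNA and 6.24, 6.33 and 6.32 with FOXL2 siRNA, so the groups did not overlap, and the difference was -1.77 (SE 0.10, limma adjusted p = 0.000556). The probe set lies outside the sequence cloned into the plasmids, so it does not check the COV434 labels, and it read 2.47 to 3.11 on all 9 COV434 arrays. The study checked the overexpression of wildtype and mutant FOXL2 by RT-qPCR and by Western blot, and reported both forms raised over the control. Of 13 granulosa markers measured, 7 were above background in KGN (5.28), namely FOXL2, INHBA, INHBB, FST, GATA4, WT1 and STAR. In COV434 (5.05) 5 were, namely INHBA, FST, NR5A2, GATA4 and WT1, and FSHR, CYP19A1, AMHR2, INHA and NR5A1 were below it in both lines. A single array stood apart in RNA quality: the 3′ minus 5′ difference of the ACTB control probe sets was 7.81 on RR1016, an empty vector array, and 1.51 to 2.58 on the other 14, and for GAPDH 4.67 against 0.10 to 1.08. Counts of calls and class medians against the empty vector, and calls between the lines, are therefore given with and without RR1016.

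On the log2 scale, the median SD of the 55 genes over 3 arrays was 0.073 for control siRNA, 0.072 for FOXL2 siRNA, 0.067 for the wildtype plasmid and 0.063 for the mutant plasmid. Any 2 plasmid arrays shared 3568 to 4295 exactly equal probe set values, and any 2 KGN arrays 21 to 93. CDC25C, for instance, had an SD of 0 on the wildtype arrays. The origin of these equal values was not tested. With the empty vector it was 0.20, beside 0.22 over all genes above background, and 28 of the 55 genes had an SD above 0.2, up to 1.22 for the mitotic kinase PLK1. PLK1 read 6.81 on RR1016 and 9.02 and 8.82 on RR1021 and RR1023. Among the 9 COV434 arrays RR1016 held the highest value of 27 members and the lowest of 12, beside 31.6% and 20.6% of all genes.

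**Figure D1:**
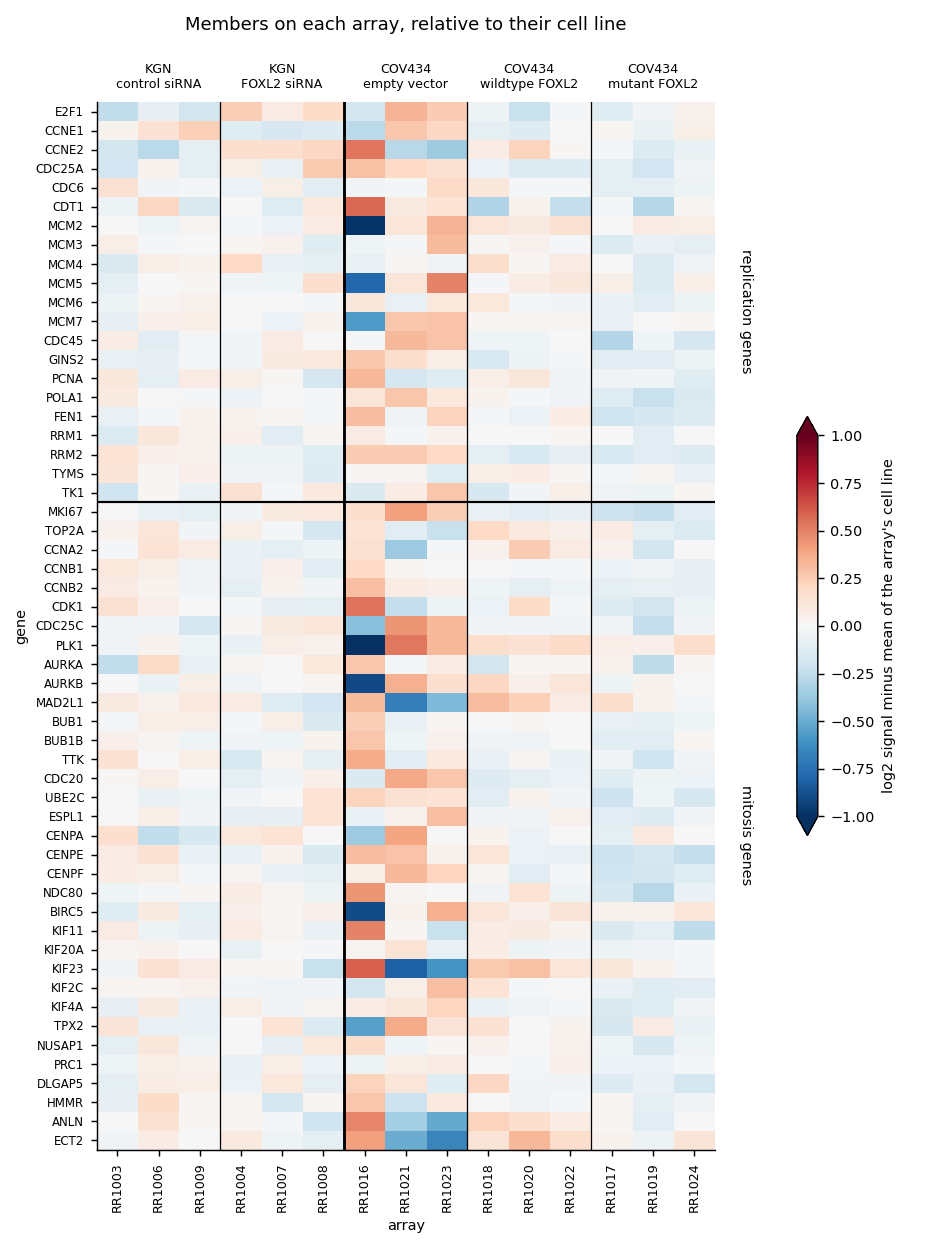
Each cell is the log2 signal of a gene (rows) on an array (columns) minus the mean of that gene over the arrays of the same line, with red above and blue below that mean and the colour scale ending at 1 in either direction. The KGN arrays and the arrays of both FOXL2 plasmids are pale. RR1016 is deeply coloured in both directions, and RR1021 and RR1023 are strongly coloured for some genes, such as KIF23. On the mutant arrays 41 to 45 of the 55 genes are below their mean.

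The knockdown asked whether loss of FOXL2 moves the cell cycle genes of KGN. None of the 55 passed limma's test at an adjusted p under 0.05, while 0.268% of all genes were called higher and 0.243% lower. At an unadjusted p under 0.05, 2 members were higher and 1 lower, no more than the shares over all genes of 4.62% and 3.57% would give in 55 genes. The median difference was -0.0064 over the 21 replication genes and -0.040 over the 34 mitosis genes, against 0.010 over all genes.

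CCNE2 encodes cyclin E2, which activates CDK2 at the entry into S phase. Its level was 9.14, 9.05 and 9.23 with control siRNA and 9.49, 9.49 and 9.53 with FOXL2 siRNA. The 3 knockdown arrays were above the 3 controls, and the difference was 0.36 (SE 0.08, 95% interval 0.17 to 0.55, 1.29-fold, unadjusted p = 0.00200, adjusted p = 0.242). The call is reached, with an adjusted p of 0.0493, where the variance is allowed to follow the mean level. No member was called under any other setting tried. There limma's smallest adjusted p of any member lay between 0.0737 and 0.648.

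E2F1 is the activator of S phase genes whose promoter is shown above. It read 7.68, 7.84 and 7.74 with control siRNA and 8.17, 8.00 and 8.11 with FOXL2 siRNA, again without overlap, a difference of 0.34 (SE 0.09, 95% interval 0.14 to 0.54, adjusted p = 0.338). CCNE1, the other cyclin E gene, stood the other way, at 8.16, 8.26 and 8.36 with control siRNA and 7.99, 7.95 and 7.99 with FOXL2 siRNA, a difference of -0.28 (SE 0.09, 95% interval -0.47 to -0.083, adjusted p = 0.478). These are the 3 members with the smallest p and none of them passed. CDC25A, the phosphatase that frees CDK2 in this step, differed by 0.17 with overlapping groups.

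The 10 genes of origin licensing and the replicative helicase (CDC6, CDT1, MCM2 to MCM7, CDC45 and GINS2) lay between -0.074 and 0.11, 5 above and 5 below 0, and in none of them were the groups apart. At the fork, the clamp PCNA, the primase polymerase POLA1 and the flap nuclease FEN1 lay between -0.063 and 0.030. Of the enzymes of deoxynucleotide supply, RRM2, the regulated subunit of ribonucleotide reductase, differed by -0.15 and the thymidylate synthase TYMS by -0.13, both with groups apart, while the thymidine kinase TK1 differed by 0.16 and RRM1 by -0.012.

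Among the mitosis genes the 4 of the spindle checkpoint, MAD2L1, BUB1, BUB1B and TTK, were below 0 at -0.15 to -0.025, and their groups overlapped. Groups were apart for CCNA2, the cyclin of S phase and G2, at -0.14 and for CDK1, the mitotic kinase, at -0.14. They were also apart for the kinesins KIF20A at -0.053 and KIF2C at -0.066, and, upwards, for CDC25C, the phosphatase that activates CDK1, at 0.15. In all, groups did not overlap for 3 members upwards and 7 downwards, where over all genes the shares were 9.53% and 7.26%. MKI67, the gene of the Ki-67 protein used as a proliferation marker, differed by 0.11 (95% interval -0.083 to 0.30), and TOP2A, which untangles chromosomes before division, by -0.087 (-0.30 to 0.13).

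**Figure D2:**
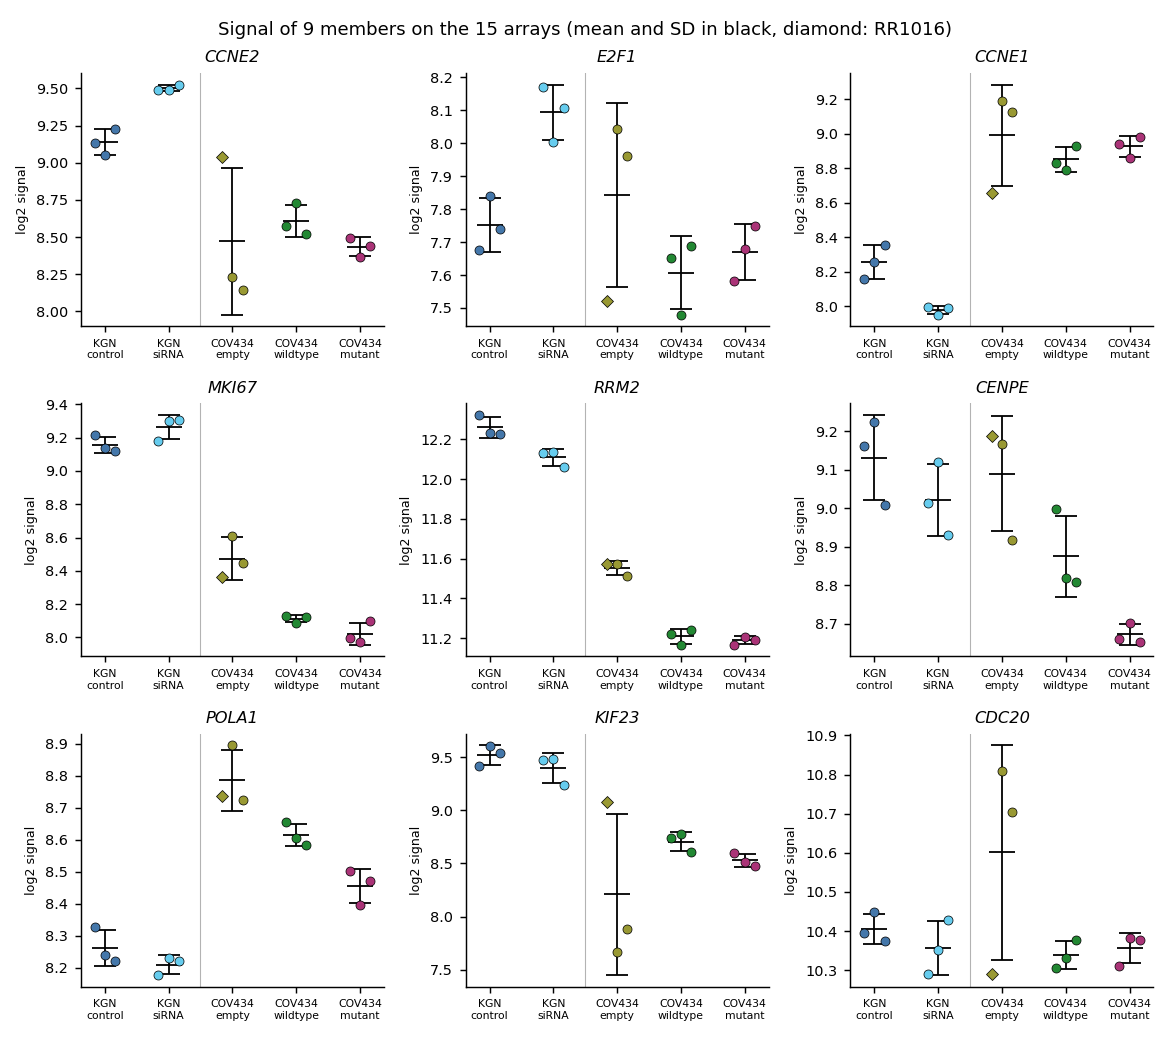
Points are the log2 signal (vertical axis, a scale of its own in each panel) of 9 genes on the 15 arrays in the 5 groups, with the group mean and SD over 3 arrays in black and RR1016 as a diamond. CCNE2 and E2F1 are higher and CCNE1 lower on the 3 FOXL2 siRNA arrays than on the controls, MKI67 (on the probe set with the highest mean) and RRM2 are lower with either plasmid than with the empty vector, and KIF23 on RR1016 lies opposite to RR1021 and RR1023.

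Mutant against wildtype FOXL2 in COV434 is the comparison on which the mutation itself bears. None of the 55 members passed limma's test, and 0% of all genes were called in either direction. At an unadjusted p under 0.05 the counts were 0 and 0 members, with 0.718% of all genes higher and 0.293% lower. By sign, 49 of 55 members were lower with mutant FOXL2, 17 of 21 replication genes and 32 of 34 mitosis genes, where 47.8% of all genes and 53.2% of genes above background were lower. All 55 were read on the same arrays, so a shift shared by an array can move many of them together. Counts of members are therefore not counts of independent observations. The median difference was -0.072 for replication genes and -0.098 for mitosis genes on the log2 scale. It was 0.0050 over all genes and -0.0071 over genes above background. The groups did not overlap for 20 of 55 members, all of them lower with the mutant, and 4.4% of all genes were lower and 4.74% higher in that way. Of the 11188 genes above background 743 were lower and 584 higher without overlap.

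The differences were small and were read against the spread of all 9 COV434 arrays, RR1016 included, which is wide. When the spread was taken from the 6 arrays of both groups, 6 members had an unadjusted p under 0.05, all lower, against 2.13% of all genes lower and 2.77% higher, and again no gene was called. By rising p these were KIF11, CENPE, ANLN, POLA1, FEN1 and KIF23. KIF11 differed by -0.23 (SE 0.07, limma unadjusted p = 0.00835, adjusted p = 0.859).

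In the fit of all 9 COV434 arrays, the 3 members with the smallest p were CENPE, POLA1 and MCM4. The SE, intervals and adjusted p below are from that fit. CENPE, the kinesin that carries chromosomes to the spindle equator, read 9.00, 8.82 and 8.81 with wildtype and 8.66, 8.70 and 8.65 with mutant FOXL2. The difference was -0.20 (SE 0.10, 95% interval -0.43 to 0.027, adjusted p = 1). POLA1, the catalytic subunit of the polymerase that begins each new strand, read 8.65, 8.61 and 8.58 against 8.50, 8.40 and 8.47, a difference of -0.16 (SE 0.09, 95% interval -0.36 to 0.038, adjusted p = 1). MCM4, a subunit of the replicative helicase, read 9.17, 9.00 and 9.07 against 8.98, 8.86 and 8.96, a difference of -0.15 (SE 0.09, 95% interval -0.34 to 0.049, adjusted p = 1). In all 3 genes each mutant array lay below each wildtype array.

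By role, the lower values, none of them called, lay in nearly every step. Of the 10 licensing and helicase genes 9 were lower and 5 did not overlap, namely CDC6, which loads the helicase, and MCM2, MCM3, MCM4 and MCM6, the last at -0.095 with 11.37, 11.25 and 11.23 against 11.19, 11.16 and 11.21. The 3 fork genes were lower, with FEN1 at -0.16 and PCNA at -0.11. The exceptions were in the G1/S drivers, where E2F1 differed by 0.063, CCNE1 by 0.075 and CDC25A by -0.00091, with groups that overlapped, while CCNE2 differed by -0.17 without overlap. CDT1 and TK1 also stood above 0, at 0.072 and 0.022.

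Among mitosis genes the 5 kinesin motors were lower, and KIF11, KIF23 and KIF2C did not overlap. KIF11, which pushes the spindle poles apart, read 9.14, 9.15 and 9.10 with wildtype and 8.92, 8.97 and 8.81 with mutant FOXL2, the largest difference of the 55 at -0.23 (SE 0.16, 95% interval -0.58 to 0.13). KIF23, the motor of the central spindle, read 8.74, 8.78 and 8.60 against 8.60, 8.52 and 8.47 at -0.18. The kinetochore genes CENPE, CENPF and NDC80, the checkpoint kinase BUB1, the spindle proteins NUSAP1 and DLGAP5, the kinase AURKB, cyclin B1 (CCNB1) and the cytokinesis scaffold ANLN make up the others without overlap. ANLN read 10.53, 10.48 and 10.39 against 10.33, 10.20 and 10.30, a difference of -0.19. The 2 mitosis genes above 0 were CDC20, the activator of anaphase, at 0.019 and CENPA, the centromeric histone, at 0.011.

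Seen per array, 41 to 45 of the 55 members were below their COV434 mean on the 3 mutant arrays, 24 to 29 on the wildtype arrays and 17 to 20 on the empty vector arrays. No member had its highest COV434 value on a mutant array, whereas each mutant array held the highest value of 6.69% to 7.38% of all genes. The wildtype arrays held few either, 2 on RR1018, 2 on RR1020 and 0 on RR1022, beside 4.06% to 5.27% of all genes. Most lay on the widely spread empty vector arrays, 27 on RR1016, 13 on RR1021 and 11 on RR1023, beside 14.5% to 31.6% of all genes.

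**Figure D3:**
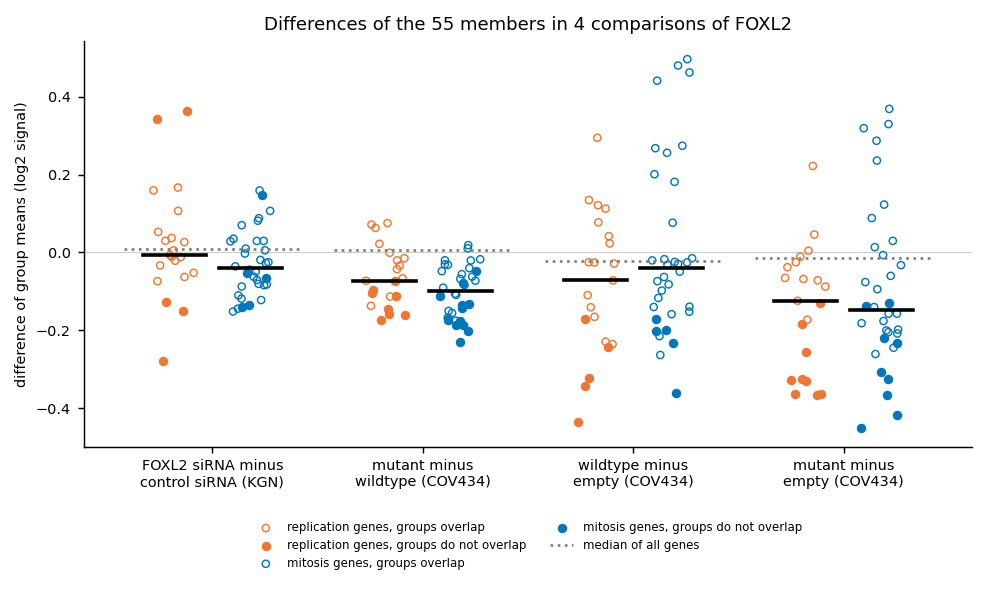
Each point is the difference of group means of a gene on the log2 scale (vertical axis) in 4 comparisons (horizontal axis), orange for replication and blue for mitosis genes, filled where the 3 arrays of one group do not overlap the 3 of the other. Black bars are medians of the class and dotted lines the median of all genes. The mutant minus wildtype points lie almost wholly below 0 within 0.23, and the points against the empty vector spread more widely.

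Either plasmid against the empty vector asks what FOXL2 does when added to a line that lacks it. These comparisons share the 3 empty vector arrays, so their values are given side by side and are not independent of each other. With all 9 arrays, limma called none of the 55 members for wildtype or for mutant FOXL2, and 0% of all genes. At an unadjusted p under 0.05, 1 member was higher and 7 lower with wildtype FOXL2, with 3.5% and 7.96% of all genes. With the mutant 0 were higher and 14 lower, with 5.24% and 8.92% of all genes. Groups did not overlap, downwards, for 10 members with wildtype and 18 with mutant FOXL2, against 10.7% and 10.8% of all genes, and upwards for no member against 4.27% and 5.65%.

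The medians were -0.072 and -0.041 for replication and mitosis genes with wildtype FOXL2, beside -0.021 over all genes. With the mutant they were -0.12 and -0.15, beside -0.015 over all genes.

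MKI67 and RRM2 were among the 3 smallest p in both. MKI67 read 8.36, 8.61 and 8.45 with the empty vector, 8.13, 8.09 and 8.12 with wildtype and 8.00, 7.97 and 8.10 with mutant FOXL2. The differences from the empty vector were -0.36 (SE 0.09, adjusted p = 0.301) and -0.45 (SE 0.09, adjusted p = 0.154), and each plasmid array was below each empty vector array. The 3 other probe sets of MKI67 did not share this: they differed by 0.094, 0.020 and 0.44 with wildtype and by -0.12, -0.091 and 0.33 with mutant FOXL2, and the mean of all 4 gave 0.049 with wildtype FOXL2. RRM2 read 11.57, 11.57 and 11.51 with the empty vector, 11.22, 11.17 and 11.24 with wildtype and 11.17, 11.21 and 11.19 with mutant FOXL2. Its differences were -0.34 (SE 0.08, adjusted p = 0.271) and -0.36 (SE 0.08, adjusted p = 0.163), and RR1016 lay with the other empty vector arrays.

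The third gene was CDC25A with wildtype FOXL2, at 8.64, 8.54 and 8.50 against 8.28, 8.21 and 8.21, a difference of -0.32 (SE 0.09, adjusted p = 0.306). With the mutant it was CENPE, at 9.19, 9.17 and 8.92 against the mutant values given above, a difference of -0.42 (SE 0.10, adjusted p = 0.197). Further members with groups apart in the mutant included CENPF at -0.37, CDC45 at -0.37, POLA1 at -0.33 and FEN1 at -0.33. The GINS2 subunit of the helicase, at -0.24 and -0.26, and UBE2C, the ubiquitin enzyme of anaphase, at -0.20 and -0.31, were lower without overlap in both.

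Left without RR1016, the same comparisons gave calls, for which RR1021 and RR1023 alone stand for the empty vector. The correlation of RR1021 with RR1023 over all probe sets was 0.991, beside 0.997 to 0.998 between arrays of the same plasmid. With the plasmid arrays RR1021 correlated at 0.990 to 0.991 and RR1023 at 0.993 to 0.994. RR1023 was thus nearer to each plasmid array than to RR1021. With wildtype FOXL2, 6 members were called, 4 higher and 2 lower, where 1.75% of all genes were called higher and 1.06% lower. With the mutant 9 were called, 3 higher and 6 lower, beside 2.02% and 1.6% of all genes. The genes named next were chosen after these values were seen.

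Called higher were KIF23, ECT2 and MAD2L1 with both plasmids and ANLN with wildtype FOXL2. KIF23 read 9.08 on RR1016 but 7.67 and 7.89 on the other empty vector arrays, with the plasmid arrays between, at 8.47 to 8.78. Without RR1016 it differed by 0.93 (SE 0.10, adjusted p = 0.0165) with wildtype and 0.75 (SE 0.10, adjusted p = 0.0261) with mutant FOXL2, and with RR1016 by 0.50 and 0.32. ECT2, which switches on the contractile ring, read 9.66 on RR1016 and 8.75 and 8.59 on the others, and differed by 0.79 and 0.62 without RR1016. MAD2L1, the checkpoint protein Mad2, read 10.73 on RR1016 and 9.73 and 9.97 on the others, and differed by 0.77 and 0.62. ANLN differed by 0.58 with wildtype FOXL2 and, uncalled, by 0.39 with the mutant. For these 4 genes, CCNE2 and PCNA, RR1016 lay above the 6 plasmid arrays and both other empty vector arrays below them, a pattern of 6 of 55 members and 5.16% of all genes.

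The lower ones without RR1016 were MKI67 at -0.42 and CDC20 at -0.42 with wildtype FOXL2. With the mutant they were MKI67 at -0.51, CDC20 at -0.40, CDC25C at -0.48, CDC45, which travels with the helicase, at -0.47, CENPF, an outer kinetochore protein, at -0.43, and RRM2 at -0.35. CDC20 read 10.29 on RR1016 and 10.81 and 10.71 on the others, with the plasmid arrays at 10.31 to 10.38. The inverse pattern, RR1016 below and both others above the plasmid arrays, was held by CDC20, CDC25C, CCNE1, MCM5, MCM7 and PLK1, 6 of 55 members and 5.76% of all genes. In 21 of 55 members RR1021 and RR1023 both lay above the 6 plasmid arrays, beside 16.7% of all genes, and in 6 of 55 both lay below, beside 12.2%.

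Without RR1016 the median of the replication genes moved from -0.072 to -0.19 with wildtype and from -0.12 to -0.21 with mutant FOXL2. That of the mitosis genes was -0.046 in place of -0.041 with wildtype and, nearer to 0, -0.12 in place of -0.15 with the mutant. The part that RNA quality has in these values was not tested beyond leaving that array out. The lone probe set value of each gene also matters here: of 40 further probe sets of the members that were above background, 22 had the sign of the main probe set with wildtype and 21 with mutant FOXL2. In the comparison of mutant with wildtype it was 32 of 40, and in the knockdown 31 of 39.

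Over the 5 groups, the genes fixed as reference points behaved as follows. MCM2, a helicase subunit, had levels of 9.31 ± 0.03 and 9.32 ± 0.07 (SD, n = 3 arrays) with control and FOXL2 siRNA in KGN, and 9.88 ± 0.71, 10.18 ± 0.03 and 10.11 ± 0.04 with empty vector, wildtype and mutant FOXL2 in COV434. The wide SD comes from RR1016, at 9.08 beside 10.18 and 10.39. PCNA stood at 12.17 ± 0.11 and 12.11 ± 0.12 in KGN and at 12.21 ± 0.28, 12.25 ± 0.07 and 12.13 ± 0.05 in COV434. TOP2A stood at 10.84 ± 0.07 and 10.76 ± 0.12, and at 10.64 ± 0.18, 10.82 ± 0.08 and 10.66 ± 0.12. Neither gene had groups apart in any of the 5 comparisons.

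CDK1 was at 11.89 ± 0.08 and 11.75 ± 0.04 in KGN and at 11.09 ± 0.40, 11.04 ± 0.13 and 10.88 ± 0.07 in COV434. Its partner CCNB1 lay the other way between lines, at 10.65 ± 0.07 and 10.57 ± 0.08 in KGN and 11.10 ± 0.11, 11.02 ± 0.01 and 10.97 ± 0.03 in COV434. KIF11 was at 9.55 ± 0.09 and 9.58 ± 0.08 in KGN and 9.16 ± 0.37, 9.13 ± 0.03 and 8.90 ± 0.08 in COV434. MKI67 was at 9.16 ± 0.05 and 9.26 ± 0.07 in KGN and 8.47 ± 0.13, 8.11 ± 0.02 and 8.02 ± 0.07 in COV434.

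The G1/S drivers were also read in COV434. E2F1 was at 7.84 ± 0.28 with the empty vector, 7.61 ± 0.11 with wildtype and 7.67 ± 0.08 with mutant FOXL2. CCNE1 was at 8.99 ± 0.29, 8.85 ± 0.07 and 8.93 ± 0.06, and CCNE2 at 8.47 ± 0.49, 8.61 ± 0.11 and 8.43 ± 0.06. The empty vector values overlapped those of both plasmids in each of the 3 genes, through RR1016 alone. RR1021 and RR1023 lay above all plasmid arrays for E2F1 (8.04 and 7.96) and CCNE1 (9.19 and 9.13). For CCNE2 they lay below all plasmid arrays (8.23 and 8.15). Without RR1016, E2F1, CCNE1 and CCNE2 differed by -0.40, -0.31 and 0.42 with wildtype and by -0.33, -0.23 and 0.25 with mutant FOXL2. None of these was called (limma adjusted p of 0.053 or above).

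KGN against COV434, with the control cells of each, asks how the lines differ before any change of FOXL2. The control groups also differ in reagent, an siRNA against 1 µg of empty vector, and in passage, 8 against 9. These cannot be told apart from the line. Of the 55 members 11 were called higher in KGN and 12 lower, 4 and 6 of the replication genes and 7 and 6 of the mitosis genes, where 39.7% of all genes were called higher and 16.8% lower. Groups did not overlap for 13 members upwards and 15 downwards, beside 46.4% and 20.4% of all genes. The lines appear to have been normalised apart from each other, and the median of all genes lay at 0.26 on the deposited scale. Against that median 18 members were above and 37 below. After quantile normalisation of the 6 arrays the all-gene median was -0.094 and 5 members were called higher and 25 lower (21.5% and 29.4% of all genes), and with each array centred on its median it was -0.23 with 2 and 32 members (19% and 37.4%). On those scales 19 and 18 members were above the all-gene median. Of the 11 members called higher, CCNE2 (0.38 and 0.17) and FEN1 (0.34 and 0.18) were among those no longer called on either scale. The directions below are for the deposited scale.

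The 6 largest differences towards KGN were those of ANLN, KIF23, PRC1, CDK1, ECT2 and RRM2. ANLN read 12.51, 12.66 and 12.54 in KGN and 10.80, 9.98 and 9.80 in COV434, a difference of 2.38 (SE 0.24, 5.20-fold, adjusted p = 0.000101). KIF23 differed by 1.31 (SE 0.33, adjusted p = 0.0114), PRC1, the bundler of midzone microtubules, by 0.89 (SE 0.11, adjusted p = 0.000305) and ECT2 by 0.73 (SE 0.26, adjusted p = 0.0460). CDK1 differed by 0.80 (SE 0.20, adjusted p = 0.0107) and RRM2 by 0.71 (SE 0.11, adjusted p = 0.000893). Of these 6, ANLN and PRC1 kept their call on all 3 scales, KIF23 and RRM2 kept it after quantile normalisation but not after centring, and CDK1 and ECT2 on the deposited scale alone. The call of ECT2 was also lost when any array but RR1016 was left out, at 0.52 to 0.75.

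The largest differences towards COV434 were spread over roles. CDC25C read 6.60, 6.60 and 6.45 in KGN and 7.28, 8.15 and 8.03 in COV434, a difference of -1.27 (SE 0.22, adjusted p = 0.00189). GINS2 differed by -0.84 (SE 0.11, adjusted p = 0.000478), KIF2C, the kinesin that takes microtubules apart, by -0.76 (SE 0.14, adjusted p = 0.00293) and CCNE1 by -0.74 (SE 0.16, adjusted p = 0.00642). BIRC5, the survivin subunit of the chromosomal passenger complex, at -0.69 and PLK1 at -0.67 did not pass, with adjusted p of 0.0795 and 0.305. The 4 called genes were lower in KGN on all 3 scales, but with the mean of all probe sets of a gene the calls of CCNE1 (-0.077) and KIF2C (-0.34) were lost.

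Without RR1016, and so with RR1021 and RR1023 alone for COV434, 17 members were called higher in KGN and 20 lower, beside 43.8% and 19.7% of all genes. BIRC5 was then called at -1.05 (adjusted p = 0.000478) and PLK1 at -1.37 (adjusted p = 4.28e-05), and ANLN stood at 2.68 and KIF23 at 1.74.

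**Figure D4:**
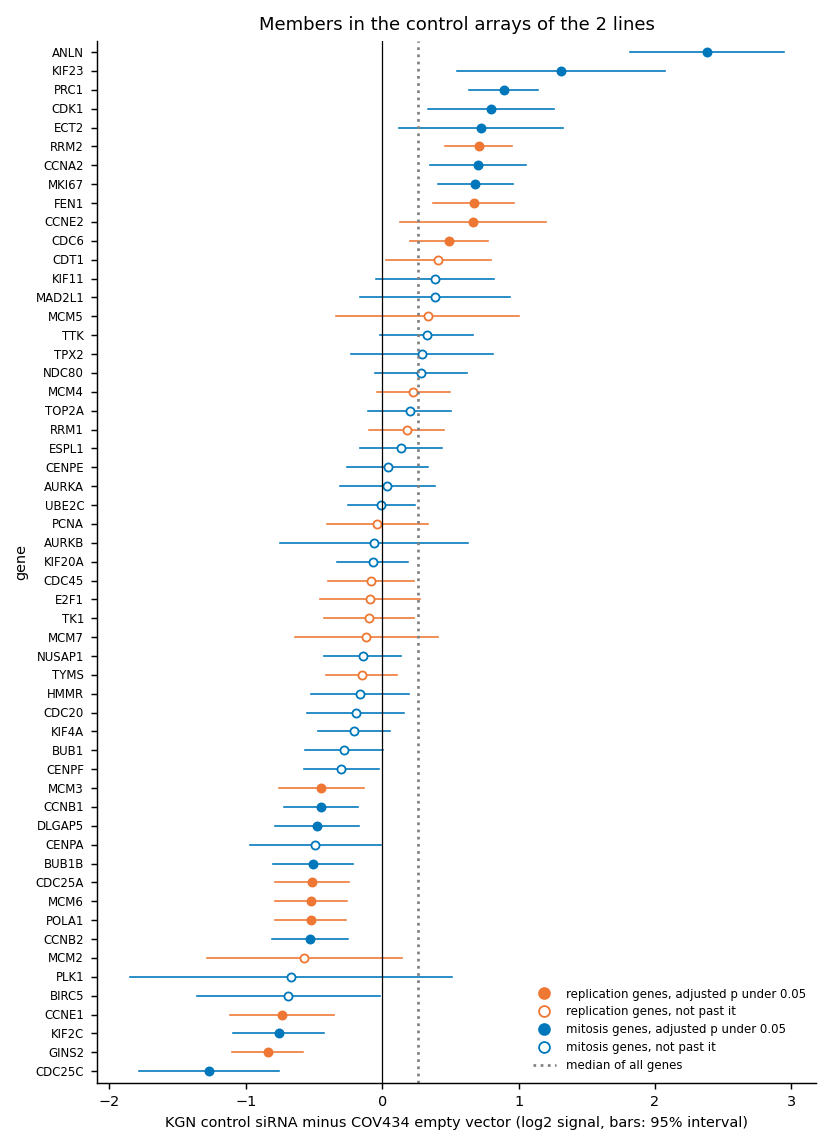
Points are the difference of the mean log2 signal of KGN control siRNA minus COV434 empty vector for the 55 genes (rows, ordered by that difference), with bars for the 95% interval of limma's fit over 6 arrays, orange for replication and blue for mitosis genes, and filled where the adjusted p was under 0.05. The dotted line is the median of all genes at 0.26, to the left of which 37 genes lie, and ANLN at 2.38 stands clear of the rest.

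Further genes of the same processes were taken from lists that do not hold the members. In the knockdown none of 38 other replication genes, 45 other mitosis genes or 22 transcription regulators of the cell cycle passed the test. At an unadjusted p under 0.05 there were 1 higher and 1 lower, 0 and 1, and 0 and 4 of them. Over all genes 4.62% were higher and 3.57% lower. The smallest p of each belonged to RFC5, a subunit of the clamp loader, at 0.27 (adjusted p = 0.449), WEE1, the kinase that restrains CDK1, at -0.32 (adjusted p = 0.354) and LIN52, a MuvB subunit, at -0.26 (adjusted p = 0.565). The median differences were -0.035, -0.0075 and -0.049.

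Between mutant and wildtype FOXL2 no gene of these lists passed either, and none had an unadjusted p under 0.05. Lower with the mutant were 33 of 38 other replication genes, 36 of 45 other mitosis genes and 17 of 22 regulators, with medians of -0.081, -0.076 and -0.093. Of all genes 47.8% were lower, and of genes above background 53.2%. The lists were read on the same arrays as the members, so their counts are not independent of those of the members. Groups did not overlap, downwards, for 12, 11 and 8 of the listed genes and upwards for 0, 0 and 0, beside 4.4% and 4.74% of all genes. The smallest p were those of MCM8, a helicase of repair, at -0.21, EXO1, an exonuclease, at -0.19 and, among regulators, of E2F7, a repressor of the E2F family, at -0.19, each with an adjusted p of 1.

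Against the empty vector, the same lists had medians of -0.11, -0.047 and -0.011 with wildtype FOXL2 and of -0.20, -0.16 and -0.070 with the mutant. Without RR1016 these were -0.16, -0.079 and -0.011 and -0.20, -0.18 and -0.068. None of these genes was called with all arrays. Without RR1016, 0 were called higher and 0 lower, 3 and 1, and 1 and 1 with wildtype FOXL2, beside 1.75% and 1.06% of all genes. With the mutant the calls were 0 and 4, 2 and 5, and 1 and 3, beside 2.02% and 1.6% of all genes. Between the lines, 1 other replication gene was called higher in KGN and 12 lower, 17 and 8 of the other mitosis genes, and 8 and 7 of the regulators, beside the 39.7% and 16.8% of all genes given above. These counts also turned with the scale: they were 0 and 24, 6 and 16, and 6 and 7 after quantile normalisation, and 0 and 28, 4 and 22, and 4 and 10 after centring. Without RR1016 they were 6 and 13, 19 and 11, and 8 and 8. Among the regulators, TFDP2, a partner of E2F proteins, differed by -2.32 (SE 0.14, adjusted p = 4.15e-06), the repressor E2F7 by 1.92 (SE 0.12, adjusted p = 5.96e-06) and MYBL1, an activator of mitotic genes, by 2.44 (SE 0.17, adjusted p = 8.55e-06). All 3 were called in the same direction without RR1016 and on the other scales.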

How the data were processed

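RNA of 15 cultures was hybridised to 15 Affymetrix U133 Plus 2 arrays, 3 for each of 5 groups taken from the labels. The authors deposited log2 values made with RMA (background correction, quantile normalisation and probe set summary), after a quality check of the arrays, and software versions are not given in the sources used here. Of 54675 probe sets, 62 array controls were left out and 54613 were tested. A single symbol was held by 41091 of them, several by 1801 and none by 11721. Depth is not defined for arrays, and 3 arrays a group limit the precision.

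Groups were compared with limma 3.58.1 in R 4.3.3 (lmFit and eBayes, two-sided), with Benjamini-Hochberg adjustment over all probe sets tested and a threshold of 0.05. The COV434 fit held 9 arrays, the KGN fit 6 and the fit between lines 6. With 3 arrays against 3 an exact permutation test cannot go below p = 0.1. Background was the 95th percentile of 143 olfactory receptor and keratin-associated protein probe sets in each line. Of the 55 members, 19 have 1 probe set. Members called were named, at most 12 a comparison. Where under 3 were called, the 3 smallest p were named, and between lines the 6 largest differences each way. MKI67, TOP2A, PCNA, MCM2, E2F1, CCNE1, CCNE2, CCNB1, CDK1 and KIF11 were given throughout, and at most 3 genes a comparison from the other lists. The members and lists were chosen with earlier results of these data known. The scripts were tested on simulated data.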

Additional observations from a re-analysis of the deposited data

How the results depend on the processing

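The results were recomputed with the mean of all probe sets of a gene, with probe sets above background alone, with quantile normalisation, with a variance trend, with other arrays in the fit, with centred arrays between the lines and without each array in turn. In the knockdown, 1 member, CCNE2, was called with a variance trend and no member under the other alternatives. The median of the replication genes lay between -0.017 and 0.026 without an array. Between mutant and wildtype FOXL2, quantile normalisation gave medians of -0.047 for replication and -0.071 for mitosis genes, the latter lay between -0.11 and -0.070 without an array, and 43 to 50 of 55 members were below 0 over the alternatives. With wildtype FOXL2 against the empty vector, the mean of probe sets turned the replication median to 0.026 and the difference of MKI67 to 0.049. Without an array that median lay between -0.19 and -0.025 and 0 to 6 members were called. With mutant FOXL2, quantile normalisation gave a replication median of -0.069, and without an array it lay between -0.21 and -0.096 with 0 to 9 called. Between the lines, medians of replication and mitosis genes were -0.015 and 0.069 with the mean of probe sets, -0.40 and -0.35 after quantile normalisation and -0.58 and -0.53 after centring. Without an array the replication median lay between -0.19 and -0.017, and 19 to 37 members were called; over the genes named there and the alternatives, a call was lost in 14 cases and gained in 5. The 6, 9 and 37 calls are those without RR1016. Beyond that array, the cause was not tested. No paired analysis was possible because the labels give no replicate numbers.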
